A study of Macaca fascicularis with 6 samples.

Results

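Genes of DNA replication, the cell cycle engine and mitosis were followed through single-cell RNA sequencing of cynomolgus monkey lung. They were chosen by symbol as a list of 50, of which 47 had a row among the 28623 genes counted, the same rows in every library. PCLAF, BUB1B and NUSAP1 had no row of that symbol and were not analysed here. The libraries came from 6 male cynomolgus monkeys (Macaca fascicularis) 3 to 5 years old, with 1 lung library per animal. The 3 control animals (replicates 1, 2 and 3) received saline of the same volume. The 3 asthma animals (replicates 8, 10 and 11) were sensitized by injection with antigen of the roundworm Ascaris suum (A.suum) in adjuvant and were then challenged with it through the nose several times, so that the model stands for repeated exposure to 1 worm antigen in males only.

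A cell that divides first licenses its replication origins with the MCM helicase, copies its DNA with the sliding clamp PCNA and a supply of deoxynucleotides, and then builds a spindle that pulls the copied chromosomes apart. Cyclins and the kinase CDK1 drive these steps in order, and the anaphase-promoting complex ends mitosis by marking cyclins and other proteins for destruction. In the lung, T and NK cells can divide after activation, and MKI67 and TOP2A are the transcripts most often used to find dividing cells in tissue, whereas neutrophils are mature cells that no longer divide.

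Among 35133 deposited barcodes, 24235 passed the quality thresholds. Per library, 4339, 3200 and 3902 control cells and 4136, 4620 and 4038 asthma cells were kept, with median depths between 3835 and 5048.5 unique molecular identifiers (UMIs, counts of single captured RNA molecules) per cell. Of the kept barcodes, 75 sequences occurred in more than 1 library. Cells were grouped without the listed cell cycle genes, and classes were named "-like" from fixed markers. All 10 T and NK markers were highest in the 10196 T and NK-like cells, for example CD3D at 1055.5 CPM (UMIs per 1000000 UMIs) there and 33.1 in the other cells. In monocyte-like cells only 3 of 7 markers were highest, with VCAN, CD14, LYZ and S100A12 higher in another class. The name came from the mean over all monocyte markers in a cluster led by VCAN, with 4 of them detected, and is less certain. Control replicate 3 stood apart in the results below, and the sums, shares and counts that rest on it most are also given without it.

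The 47 genes gave 107426 UMIs in all, of which the T and NK-like cells held 56.0%. Macrophage-like cells held 18.8%, and no other named class held more than 3.66%. Relative to all UMIs of the class, the summed members reached 1511.8 CPM in T and NK-like cells, over 60109 member UMIs. Per library the sum in T and NK-like cells was 1289.5, 1476.9 and 3268.3 CPM in the control animals 1, 2 and 3, and the asthma animals 8, 10 and 11 had 963.3, 791.7 and 645.3. The groups did not overlap, and control replicate 3 held the highest value. The mean was 2011.6 ± 1092.4 (SD, n = 3) in controls and 800.1 ± 159.2 (n = 3) in asthma animals, and without control replicate 3 the control mean was 1383.2 ± 132.5 (n = 2). STMN1 alone gave 15782 of the UMIs, and without it the sums still did not overlap (1465.2 ± 779.3 and 611.6 ± 130.2 CPM, n = 3 each). In a summed sample, fewer cells that carry a transcript and less RNA in each of them cannot be told apart, and the cells themselves are counted further on.

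**Figure D1:**
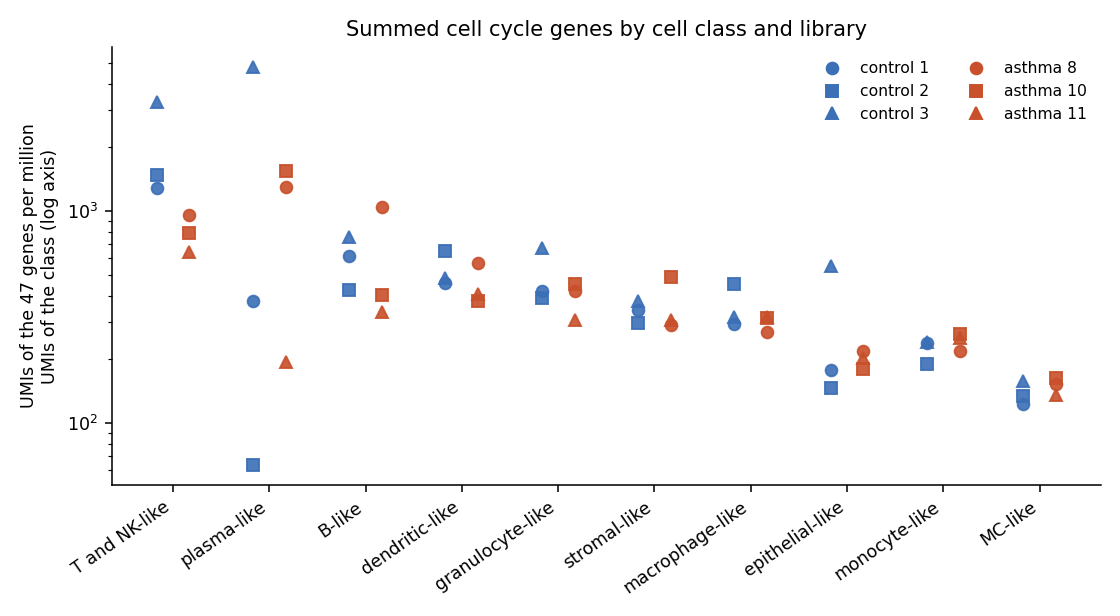
Summed UMIs of the 47 cell cycle genes per 1000000 UMIs of the class (log axis) for each cell class with at least 10 cells per library. Each point is 1 library, blue for control and orange for asthma, and the asthma points lie below all control points in T and NK-like cells (645.3 to 963.3 against 1289.5 to 3268.3) and overlap the controls in every other class shown.

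Every role was represented in T and NK-like cells, and levels of single genes below are CPM scaled by edgeR's TMM factors, while sums over members are unscaled CPM. Of the 47 genes, 46 passed the filter on low counts, and TK1, thymidine kinase of the salvage pathway, did not, with 39 UMIs in all. For all 46 the fitted log2 fold change of asthma against control was below 0, as it was for 49.4% of the 10464 genes tested. The median over the 46 was -1.41, and over all genes tested it was 0.0034, with members ranging from -2.45 for TYMS to -0.60 for RRM1. The members sit largely in the same cells, so that these are not 46 separate observations.

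Among the replication genes, PCNA, the clamp that holds the polymerase on DNA, stood at 178.6, 134.3 and 175.2 CPM in the control animals and at 94.8, 106.6 and 74.4 in the asthma animals, in the order of replicates used throughout. All 3 controls lay above all 3 asthma animals, and control replicate 3 was not the highest of them. The log2 fold change was -0.82 (SE 0.18), and the unadjusted p of edgeR's quasi-likelihood test was 0.00139. MCM7, a subunit of the replicative helicase, was at 41.7, 46.7 and 64.0 in controls and 28.7, 29.1 and 22.7 in asthma animals. MCM2, another subunit, was at 8.62, 10.8 and 10.8 against 6.40, 4.74 and 3.62. Neither overlapped between groups, and the log2 fold changes were -0.92 (SE 0.19) and -1.01 (SE 0.26). All 12 genes of replication licensing and the fork had non-overlapping groups with asthma lower, beside 6.53% of all genes tested. Their median log2 fold change was -1.09, from -0.80 for MCM6 to -2.14 for ESCO2, the acetyltransferase that locks cohesin rings on sister chromatids.

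Genes of deoxynucleotide supply held both extremes. TYMS, which makes thymidylate, stood at 32.9, 42.9 and 113.5 CPM in controls and 14.3, 10.2 and 9.81 in asthma animals, a log2 fold change of -2.45 (SE 0.46), which was -1.71 without control replicate 3. RRM2, the subunit of ribonucleotide reductase made in S phase, was at 27.3, 40.2 and 78.8 against 17.5, 10.9 and 13.9. RRM1, the partner subunit that many resting cells also hold, was at 53.1, 57.5 and 70.4 against 39.2, 41.8 and 38.2. None of the 3 overlapped between groups, as for 6.53% of all genes with asthma lower. The asthma libraries lay close together in RRM1 (mean 39.7 ± 1.83, n = 3, against 60.3 ± 9.01 in controls). TK1 had values of 2.77, 0.841 and 1.46 in controls and 0.267, 0.153 and 0 in asthma animals, too few UMIs for the test.

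Of the cyclins and their kinase, CDK1, the kinase that starts mitosis, stood at 24.3, 18.5 and 49.5 CPM in controls and 15.2, 9.18 and 7.75 in asthma animals, with a log2 fold change of -1.50 (SE 0.39). CCNB1, its mitotic cyclin, was at 12, 13.2 and 20.3 against 9.20, 9.02 and 5.68, with -0.91 (SE 0.27). Neither gene overlapped between groups, and the same held for CCNA2 and CCNB2. CCNE2, a cyclin of entry into S phase, overlapped, with 4.06 in control replicate 2 below the asthma range of 4.39 to 5.20.

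AURKA had the smallest p of any member (0.000263, adjusted p = 0.25 over all genes, edgeR). This kinase matures the centrosomes, and its level was 22.6, 17.7 and 19.9 CPM in controls and 10.8, 9.18 and 9.04 in asthma animals. The 3 controls differed little among themselves, and the log2 fold change was -1.04 (SE 0.18). Of the 7 measured mitotic kinases, checkpoint and chromosomal passenger genes, 5 did not overlap, beside 6.53% of all genes with asthma lower. Among them were AURKB and BIRC5, which sit together in the passenger complex. PLK1 overlapped, since control replicate 1 at 4.62 lay below asthma replicates 8 and 10 at 6.26 and 4.74, and so did TTK.

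Centromere and kinetochore genes differed least among the mitotic roles, with a median log2 fold change of -0.93 over 5 genes. CENPF, a large kinetochore protein, was at 98.2, 83.1 and 198.5 CPM in controls and 64.1, 84.0 and 63.0 in asthma animals, and the groups overlapped. CENPE, the kinetochore motor, was at 23.7, 29.0 and 49.4 against 18.4, 16.1 and 19.6, without overlap. CENPA, the histone that marks the centromere, overlapped as well.

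STMN1 gave the most UMIs of all members. It encodes stathmin, a protein that destabilizes microtubules, and stood at 378.3, 380.6 and 872.8 CPM in controls and 204.6, 192.5 and 162.4 in asthma animals. The groups were far apart, with the lowest control well above the highest asthma library, and the log2 fold change was -1.54 (SE 0.32). ASPM, a spindle pole protein, was at 21.7, 34.9 and 96.9 against 18.7, 14.1 and 10.6, close to each other in control replicate 1 and asthma replicate 8. Of the 9 spindle genes, 7 did not overlap, beside 6.53% of all genes with asthma lower, and TPX2 and KIF20A did.

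The 3 genes of the anaphase-promoting complex and mitotic exit had a median log2 fold change of -1.68. UBE2C, the ubiquitin-conjugating enzyme of the complex, was at 22.8, 27.8 and 124.3 CPM in controls and 19.3, 13.6 and 10.1 in asthma animals. Control replicate 3 was far above the other controls, which lay just above asthma replicate 8, and the log2 fold change of -2.00 had an SE of 0.63. Without that library the log2 fold change of UBE2C was -0.80 (SE 0.27), the median of the 3 genes was -0.78, and their summed level was 1.64 times as high in controls as in asthma animals in place of 3.53 times. Of the genes of mitotic chromosome structure, TOP2A, which untangles the copied DNA, was at 41.4, 48.1 and 138.7 against 29.5, 20.2 and 18.1. MKI67, which coats mitotic chromosomes, was at 56.8, 99.9 and 209.5 against 57.6, 45.1 and 27.4, so that asthma replicate 8 lay just above control replicate 1 and the groups overlapped. Their log2 fold changes were -1.74 (SE 0.45) and -1.48 (SE 0.45), and without control replicate 3 they were -0.97 and -0.84.

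**Figure D2:**
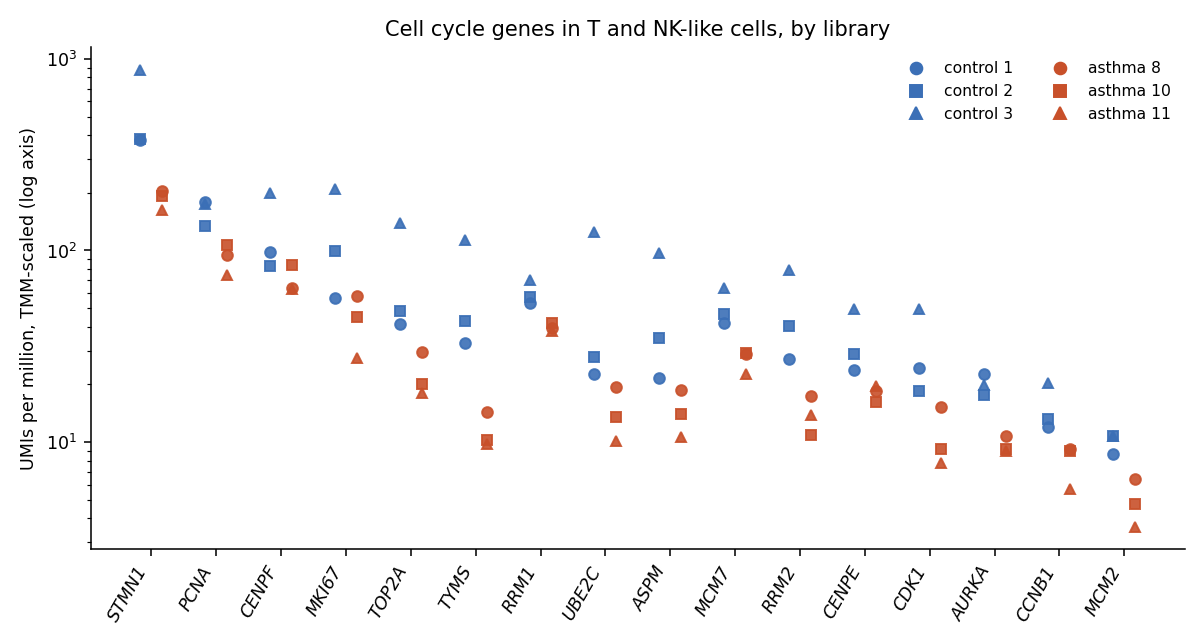
Level of 16 cell cycle genes in T and NK-like cells in CPM, TMM-scaled (log axis). Each point is 1 library, blue for control and orange for asthma. Control replicate 3 (blue triangle) is the highest library for most genes, but not for PCNA and AURKA, and MKI67 and CENPF are the genes shown whose groups overlap.

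With 3 animals per group, the quasi-likelihood test of edgeR, adjusted after Benjamini and Hochberg, called 0 of the 46 members and 0 of all 10464 genes tested (0% called) at an adjusted p under 0.05 and a log2 change over 0.25. The smallest adjusted p of a member was 0.25. At an unadjusted p under 0.05, 43 of the 46 members were lower in asthma and 0 were higher, beside 4.08% of all genes lower and 2.94% higher. The 3 that missed that level were TTK (0.0553), CCNE2 (0.0916) and KIF20A (0.0919), which had 259, 316 and 86 UMIs. Groups did not overlap, with asthma lower, for 38 of the 46, beside 6.53% of all genes tested. DESeq2 on the same counts called 16 members, all lower in asthma, beside 0.621% of genes called lower. edgeR with no filter on low counts also called 16, beside 0.287% of genes called lower, and 14 were called by both. Whether a member passed the adjusted threshold therefore depended on the tool and on the filter on low counts, and the direction did not.

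Control replicate 3 set much of the size. Without it the median log2 fold change of the 46 tested members was -0.84 in place of -1.41. All 46 stayed below 0, beside 49.4% of all genes tested in that fit, 34 had an unadjusted p under 0.05, beside 3.38% of all genes lower, and 0 were called by edgeR. The fold change of 24 of the 46 members moved by over 1.5 times, among them 7 of the 9 spindle genes, 6 of the 7 mitotic kinase, checkpoint and passenger genes and 1 of the 12 replication genes, ESCO2. Of the genes given in every library above, TYMS, ASPM, UBE2C, TOP2A and MKI67 were among them, with ASPM at -0.95 in place of -1.81. CCNE2 came nearest to 0, at -0.08. The median of the replication genes went from -1.09 to -0.96 and that of the spindle genes from -1.39 to -0.84. Leaving out any other library moved the median to between -1.26 and -1.65.

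**Figure D3:**
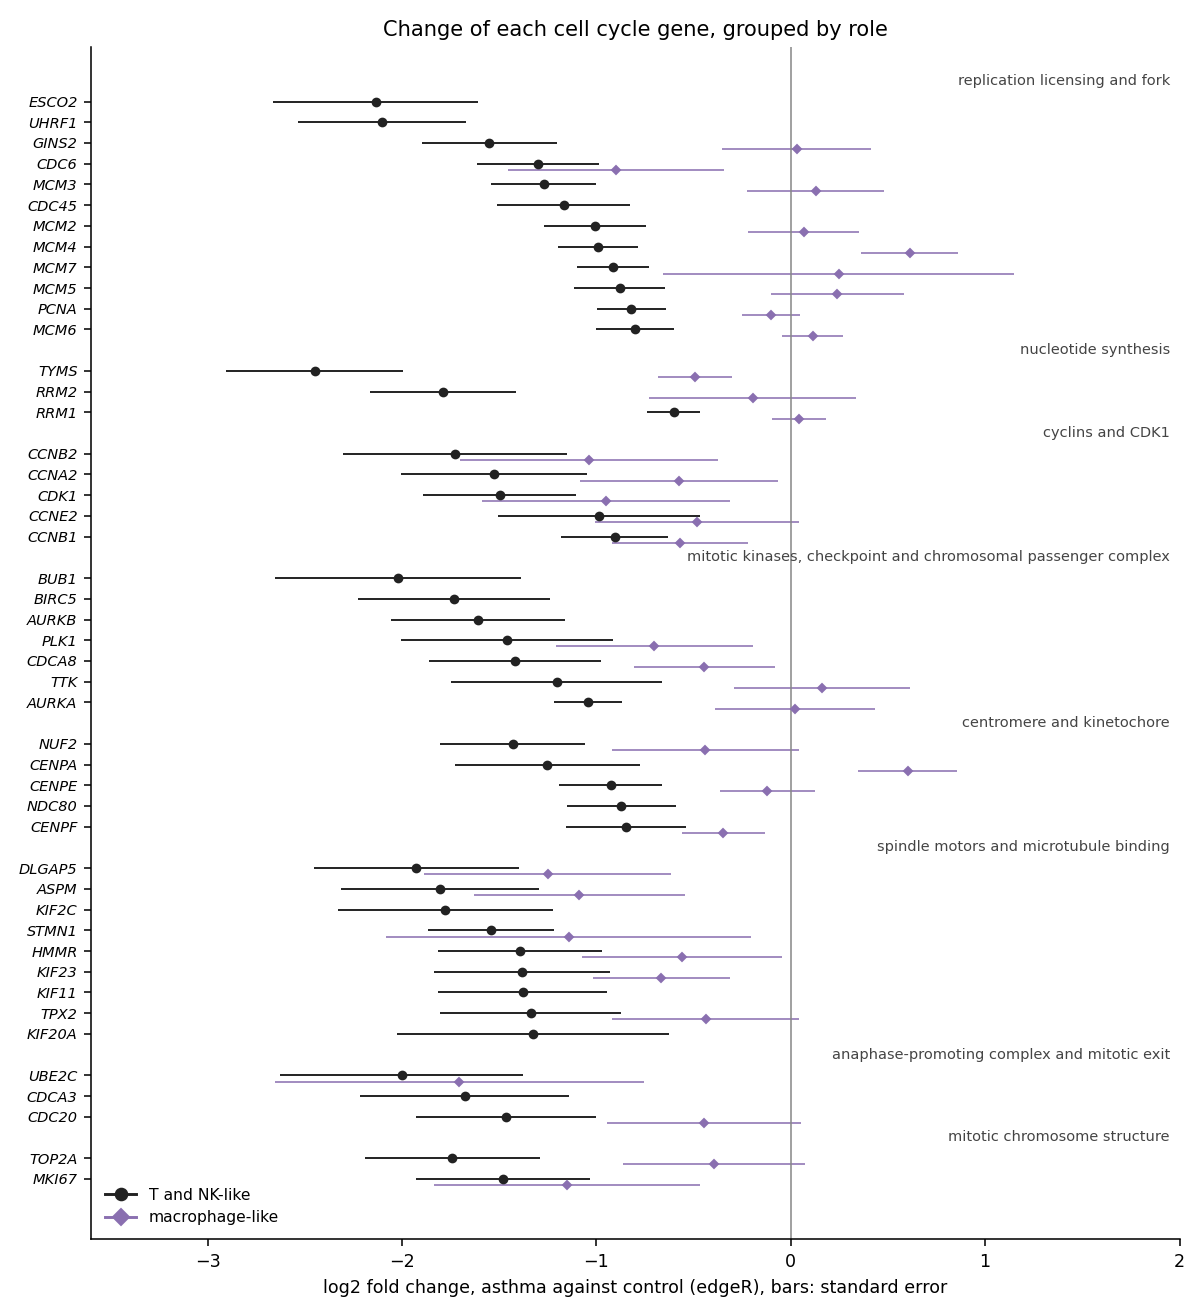
Fitted log2 fold change of asthma against control for each tested cell cycle gene, grouped by role. Bars are 1 standard error, computed from edgeR's fold change and test statistic. Black circles are T and NK-like cells, where all 46 genes lie below 0 from -2.45 to -0.60, and purple diamonds are macrophage-like cells, where 24 of 35 lie below 0 and 11 above.

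The sums were then taken apart by cell. In T and NK-like cells, 794 of 10196 cells (7.79%) had UMIs of at least 5 members, a range on a count and not a cell type, and up to 44 of the 47 members were seen in a cell. Near that limit, 441 cells had 4 members and 143 had 5. The share was 6.38%, 10.6% and 19.1% in the control animals and 3.62%, 3.44% and 2.11% in the asthma animals. The groups did not overlap, and the 95% Wilson intervals, which cover counting error only, ran from 5.36 to 7.58% in the lowest control and from 2.87 to 4.55% in the highest asthma library. The mean was 12% ± 6.48 (n = 3) in controls and 3.06% ± 0.825 (n = 3) in asthma animals. Without control replicate 3 the control mean was 8.49% ± 2.98 (n = 2), a difference of -5.43 percentage points, and the groups did not overlap. No p is given for this share, since it was built from the members.

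Depth was not the same in every library, with medians of 3410, 4484 and 4036 UMIs per T and NK-like cell in controls and 3496, 3255 and 3551.5 in asthma animals. After each cell was thinned to 1000 UMIs, which left out 74 shallower control cells and 66 asthma cells, the share with at least 5 members was 2.30%, 3.81% and 13.5% in controls and 1.55%, 1.24% and 0.831% in asthma animals. The order of the groups was kept, and control replicate 1 and asthma replicate 8 came close. With at least 10 members per cell, unthinned, the shares were 3.19%, 5.84% and 14.1% against 1.78%, 1.54% and 0.824%, and the groups did not overlap either. In granulocyte-like cells, which should not divide, 1 of 1641 cells had at least 5 members unthinned (0.0609%), at a median of 1004 UMIs. After thinning it was 1 of 836 (0.120%), against 4.04% of T and NK-like cells.

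**Figure D4:**
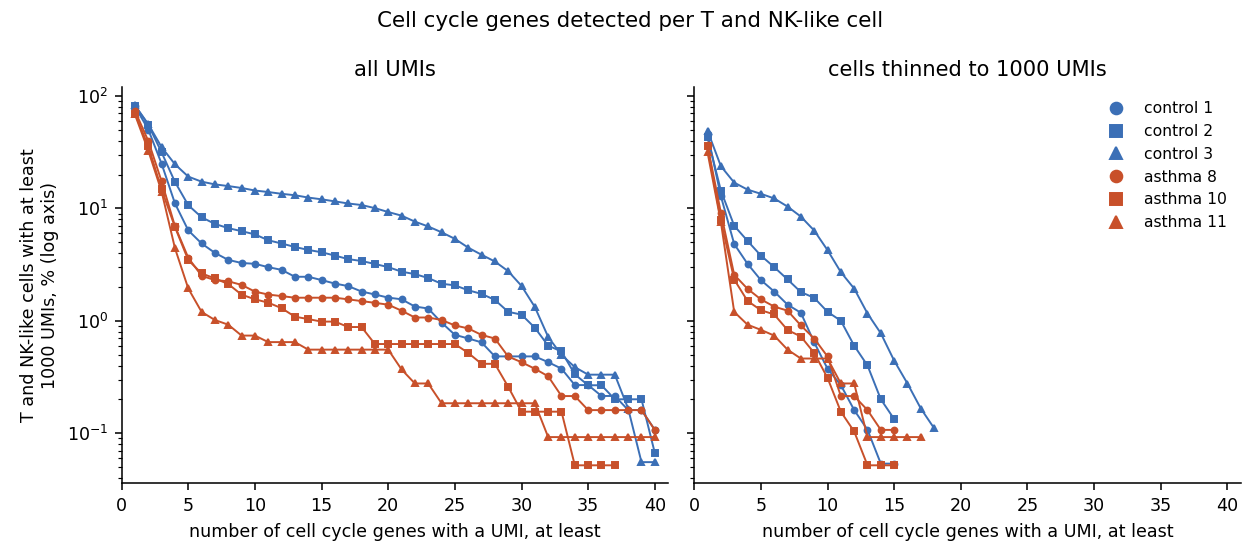
Percentage of T and NK-like cells with at least 1000 UMIs (log axis) in which at least the given number of cell cycle genes had a UMI, for all UMIs (left) and after thinning each cell to 1000 UMIs (right). Each line is 1 library, blue for control and orange for asthma, and at 5 genes the control lines run from 2.30% to 13.5% after thinning and the asthma lines from 0.831% to 1.55%.

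The cells with at least 5 members held 12.9% of all UMIs of the class but 72.3% of the member UMIs. The share of member UMIs that they held was 59.3%, 74.1% and 88.4% in controls and 56.9%, 47.9% and 39.1% in asthma animals. Within these cells, the summed members stood at 6464.6, 6498.9 and 11036.2 CPM in controls and 7760.4, 6490.2 and 7371.1 in asthma animals, so that the groups overlapped. In the remaining cells the sum was 595.0, 460.6 and 513.0 CPM in controls against 446.9, 437.9 and 406.8, a narrower gap without overlap. Replication and nucleotide genes made up 29.8%, 28.8% and 20% of the member UMIs in the control cells with at least 5 members and 23.4%, 25.2% and 24.7% in the asthma cells. Control replicate 3, with the most such cells, had the lowest share of replication genes in them.

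Single members differed in how strictly their UMIs kept to these cells. For each gene in turn, cells were split by whether they held UMIs of at least 5 other members. BIRC5, the survivin subunit of the passenger complex, had 99.7% of its 311 UMIs in such cells, TYMS 98.1% of 1667, and UBE2C 96.7% of 1643. TOP2A had 91.3% and MKI67 85.7% there, while CDK1 had 77.7% and STMN1 74.7%. At the other end, PCNA had 37.4%, RRM1 37.7%, NDC80 43.8%, AURKA 43.9% and CENPF 45.1%, and CCNB1 51.1%. PCNA had a UMI in 26.1% of the remaining cells and STMN1 in 26.3%, against 4.42% for MKI67, 0.542% for UBE2C and 0.276% for TYMS. No gene fell to the 12.9% of all UMIs that the cells with at least 5 members held.

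**Figure D5:**
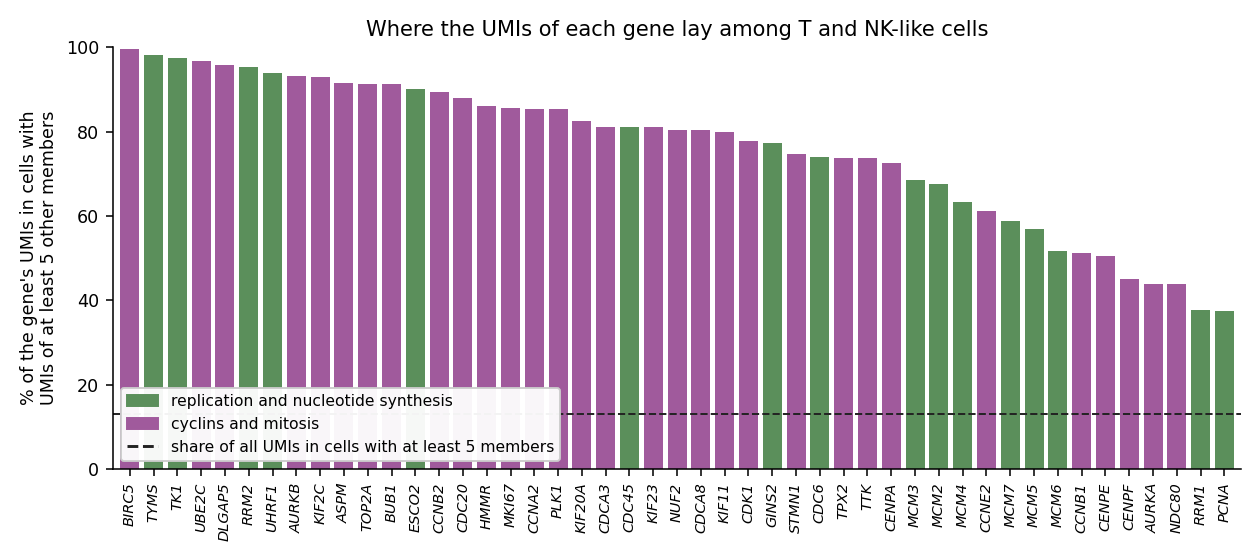
Percentage of each gene's UMIs in T and NK-like cells that lay in cells with UMIs of at least 5 other members, green for replication and nucleotide synthesis and purple for cyclins and mitosis. The dashed line at 12.9% is the share of all UMIs in cells with at least 5 members, and the bars fall from 99.7% for BIRC5 to 37.4% for PCNA.

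The cells with at least 5 members came from several T and NK-like sub-clusters. Although the listed cell cycle genes took no part in clustering, 432 of the 794 (54.4%) lay in a sub-cluster of 439 cells led by the histone genes H1-5 and H3C15 and by CDKN3, PKMYT1, FBXO5, BRCA2 and EZH2, which also follow the cycle. That sub-cluster held 48, 65 and 253 cells of the control animals and 35, 27 and 11 of the asthma animals, and 61.0% of the member UMIs of the class. The rest were spread over 11 other sub-clusters, with 67 and 43 cells in NK sub-clusters led by FCER1G and by CLNK and 40 in the CD4 T sub-cluster led by CD40LG. The make-up of the whole class also differed by library. A sub-cluster led by SERPINA1 held 84, 337 and 155 control cells and 690, 483 and 46 asthma cells. The NK sub-cluster led by FCER1G held 694, 168 and 334 against 79, 249 and 21. The part of this make-up in the differences of the members was not tested. Lineage genes were found in both the cells with at least 5 members and the remaining cells. CD3D stood at 861.8 CPM in the former and 1084.2 in the latter, GNLY at 2410.3 and 2836.9, and NKG7 at 2821.2 and 2478.1. The 6 CD4 T markers summed to 155.6 CPM in the cells with at least 5 members and 326.0 in the rest. Among them IL7R, a chain of the interleukin 7 receptor, was at 57.8 and 153.9, CD40LG, a ligand by which helper T cells act on B cells, at 16 and 42.9, and CD4 itself at 22.8 and 35.9. Doublets marked by Scrublet scores made up 2.64% of the cells with at least 5 members and 1.19% of the rest, and leaving all marked cells out gave shares of 11.8% ± 6.35 in controls and 3.02% ± 0.850 in asthma animals (n = 3 each).

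Of the markers of other classes, 2 lists had summed levels in T and NK-like cells that did not overlap between the groups. The 7 B markers summed to 22.7, 21.0 and 26.4 CPM in controls and 19.4, 19.6 and 16.8 in asthma animals, and the 7 monocyte markers to 102.4, 77.1 and 95.7 against 110.3, 111.6 and 130.4. The 6 MC markers differed more but overlapped, with sums of 14.3, 22.8 and 14 CPM in controls and 108.6, 99.8 and 20.2 in asthma animals, high in asthma replicates 8 and 10. ITLN1, an intelectin, was the most abundant of them, at 14.9 ± 4.33 and 67.1 ± 43.3 CPM (n = 3 each), and CALB2 was at 0 in every library. Other lists were high in single libraries. The plasma markers summed to 206.5, 237.0 and 359.3 CPM in controls and 130.2, 1008.6 and 382.6 in asthma animals. The epithelial markers summed to 347.2, 100.7 and 75.4 against 106.3, 160.3 and 704.5. HBB, an erythroid marker, was at 700.4 CPM in control replicate 2 and at 7.4 or below elsewhere. The part of all these markers in the differences of the cell cycle genes was not tested. The 10 T and NK markers summed to 12240.2 ± 331.8 and 12332.0 ± 2259.1 CPM (n = 3 each). In the cells with at least 5 members alone, some lists were high in single libraries of either group. The 5 plasma markers were high in control replicate 3, with sums of 27, 27.7 and 1291.3 CPM in controls and 60.5, 91.2 and 89.4 in asthma animals. IGKC, an immunoglobulin light chain, was the most abundant, at 910.3 CPM in control replicate 3. A single cell of that library held 2578 of the 2674 plasma marker UMIs, and without it the sum there was 46.6 CPM. The monocyte markers were at 681.1 CPM in asthma replicate 8, most of it LYZ at 663.0, and from 53 to 106.4 in the other libraries. There too 1 cell held 295 of the 338 UMIs, and without it the sum was 89.9. The 13 epithelial markers were at 240.9, 73.5 and 62.8 CPM in controls and 80.6, 296.5 and 648.4 in asthma animals. In asthma replicate 11 SFTPC, a surfactant protein, was the most abundant at 506.8 CPM, and the sum there was spread over cells, with 571.7 after the cell with the most was left out. Leaving out the 14 T and NK-like cells with over 1% of their UMIs from the markers of any other class, a choice made after seeing the data, gave shares with at least 5 members of 12% ± 6.44 and 3.04% ± 0.808 and member sums of 2016.4 ± 1091.1 and 801.0 ± 159.9 CPM in controls and asthma animals (n = 3 each).

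MKI67 was also counted by cell, as a gene on its own. A UMI of MKI67 was found in 5.95%, 11.3% and 20.1% of these cells in controls and in 5.40%, 6.31% and 2.75% in asthma animals. The groups overlapped, since asthma replicate 10 lay above control replicate 1, and the difference of the means was -7.63 percentage points (12.5% ± 7.14 and 4.82% ± 1.85, n = 3 each). Without control replicate 3 the control mean was 8.62% ± 3.78 (n = 2), and the difference was -3.80. An exact permutation test, two-sided with 20 ways to assign the animals, gave p = 0.2, where 3 animals against 3 cannot go below 0.1. After thinning, the shares were 1.88%, 4.61% and 10.3% against 2.57%, 2.43% and 1.02%, and the exact permutation p was 0.3. In granulocyte-like cells, a class that should lack the transcript, 8 of 1641 cells had a UMI of MKI67 (0.488%), and 0.837% of those deep enough to thin, against 3.94% of T and NK-like cells after thinning. The source of these UMIs was not tested. All 4 of them in control replicate 3 lay in 1 cell, and that library also held the 1 granulocyte-like cell with at least 5 members.

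Outside T and NK-like cells the summed members overlapped between the groups in every class. In macrophage-like cells the sum was 354.0 ± 86.0 CPM in controls and 299.7 ± 26.3 in asthma animals (n = 3 each). These cells were deep, with a median of 18380 UMIs, and 19.6% of them had at least 5 members unthinned and 0.263% after thinning. They lay in different sub-clusters by library. In 1 led by FER1L6 were 511, 1 and 4 control cells and 0, 0 and 0 asthma cells. Another led by FAM9C held 0, 19 and 2 against 319, 1 and 14. A further one led by IFI27 held 4, 2 and 4 against 1, 275 and 2. The part of this make-up in the values of the class was not tested. Of 35 members that passed the filter, 24 had a log2 fold change below 0 and 11 above, beside 49.7% of all genes below 0, with a median of -0.44 beside 0.0019 for all 10505 genes tested. edgeR called 0 of them and 0% of all genes, 1 had an unadjusted p under 0.05 lower and 2 higher, beside 2.51% and 2.87% of all genes, and DESeq2 called 0.

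The 3 members with the most UMIs in macrophage-like cells were STMN1, PCNA and MCM7. STMN1 was at 28.7, 254.2 and 40.0 CPM in controls and 22.3, 100 and 22.2 in asthma animals, high in control replicate 2 and asthma replicate 10 only. PCNA was even across the libraries, at 64.9, 50.5 and 61.8 against 57.0, 60.3 and 47.7. MCM7 was at 39.5, 42.5 and 10.3 against 9.89, 11.6 and 91.2, high in asthma replicate 11. TYMS and MCM4 had the smallest unadjusted p, 0.0328 for a log2 fold change of -0.49 (SE 0.19) and 0.0425 for 0.61 (SE 0.25).

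The difference between both classes was tested itself, as the class by group term of a model with the library as a block. For all 46 members tested the log2 fold change in T and NK-like cells was below that in macrophage-like cells, with a median of -0.73, and 51.3% of all 11478 genes had that sign. Not all of them passed the filter in macrophage-like cells alone. Some had few UMIs there, such as KIF20A with 12 and BIRC5 with 22. The SE of the difference was 2.14 for BIRC5, and it was 1.02 for STMN1, which had 4342 UMIs there. edgeR called 0 members and 0% of all genes, and 15 members had an unadjusted p under 0.05, beside 3.71% of all genes in that direction. PCNA had the smallest, 0.000294, at a difference of -0.74 (SE 0.13) and an adjusted p of 0.351 by the same quasi-likelihood test. DESeq2 called PCNA, beside 0.0348% of genes called in that direction, and edgeR with no filter called TYMS and MCM4, beside 0.123%. Without control replicate 3, 37 of the 46 kept that sign and 9 did not, beside 51.2% of all genes with that sign in that fit.

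Plasma-like cells were few but held member UMIs unevenly. In 125 cells the sum was 378.3, 63.7 and 4775.9 CPM in controls and 1302.9, 1545.8 and 194.9 in asthma animals. Control replicate 3 was again highest, with 15 of its 21 plasma-like cells carrying at least 5 members, and MKI67 there was at 845.4 CPM against 74.5 and 0 in the other controls. In asthma animals MKI67 was at 564.4, 288.3 and 16.6, and the groups overlapped. Of the 25 plasma-like cells with at least 5 members, 17 lay in a sub-cluster of 18 cells, of which 13 came from control replicate 3. The leading genes of that sub-cluster, such as H3C15 and BRCA2, included no listed plasma marker, so that its name is less certain. The mean sum was 1739.3 ± 2634.5 CPM in controls and 1014.6 ± 720.1 in asthma animals (n = 3 each), and without control replicate 3 the control mean was 221.0 ± 222.5 (n = 2), below the asthma mean. CENPF was at 55.2, 6.05 and 347.5 in controls and 218.1, 94.5 and 0 in asthma animals. PCNA was at 35.9, 30.2 and 136.2 against 51.3, 151.2 and 41.5. CENPF and STMN1 had the smallest p of the 4 members tested (0.698 and 0.710), 0 were called by edgeR or DESeq2, as were 0% of all genes by edgeR, and 0 reached an unadjusted p under 0.05.

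In B-like cells the sum was 598.1 ± 165.5 CPM in controls and 595.9 ± 393.5 in asthma animals (n = 3 each), with asthma replicate 8 highest at 1048.6. CENPF was at 166.6, 56.7 and 136.1 CPM in controls and 53.8, 40.2 and 22.1 in asthma animals, without overlap, as for 6.08% of all genes, with control replicate 2 near asthma replicate 8. Its log2 fold change was -1.45 (SE 0.37), with an unadjusted p of 0.00151 and an adjusted p of 0.629 by edgeR. It was the only member called in any class, T and NK-like cells included, when a library was left out (without control replicate 2, adjusted p = 0.0198 by edgeR). The share of all genes called in that fit is not given here. STMN1 was at 123.8, 82.4 and 109.9 against 191.4, 58.7 and 73.6, and PCNA at 119.2, 102.7 and 90.4 against 76.3, 102.2 and 88.3, both with overlap. MCM5 had the other p under 0.05 (0.0452 in edgeR, log2 fold change 0.89), and the unadjusted p was under that level for 3.76% of all genes lower and 2.50% higher. Of 7 members that passed the filter 0 were called, beside 0.0314% of all genes. edgeR with no filter on low counts called CENPF (-1.48, adjusted p = 9.85e-06), beside 0.454% of genes called lower. The B-like cells lay in different sub-clusters by library. In 1 led by LYPD1 were 131, 1 and 0 control cells and 0, 0 and 0 asthma cells. Another led by SPAG9 held 11, 21 and 111 against 33, 20 and 5. The part of this make-up in the CENPF difference was not tested.

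Dendritic-like cells held 498.4 CPM of member UMIs, with STMN1 at 142.8, 203.5 and 107.5 in controls and 132.0, 80.3 and 111.0 in asthma animals. PCNA was at 109.0, 52.2 and 69.5 against 91.7, 101.9 and 79.0, and RRM1 at 36.6, 26.1 and 29.8 against 34.2, 27.8 and 22.6. All 3 overlapped. MCM6 and MCM2 had the smallest unadjusted p (0.0536 and 0.0557), both with log2 fold changes above 0 (0.82, SE 0.38, and 0.88, SE 0.41). Of 10 members tested 0 were called, beside 0.0158% of all genes, and 0 had an unadjusted p under 0.05. DESeq2 called 0, and edgeR with no filter called UBE2C lower (log2 fold change -3.41, SE 0.79), beside 0.261% of genes. Of the 76 UMIs of UBE2C, 69 lay in the 100 cells with UMIs of at least 5 other members, and 6% of those cells held them.

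Stromal-like cells were the only other class in which 2 members had an unadjusted p under 0.05 with asthma lower. STMN1 was at 141.2, 111.6 and 148.9 CPM in controls and 94.0, 75.8 and 82.1 in asthma animals, and RRM1 at 66.3, 48.0 and 53.6 against 31.0, 42.6 and 33.5. Neither overlapped, as for 12% of all genes with asthma lower, and the log2 fold changes were -0.68 (SE 0.18, adjusted p = 0.107 by edgeR) and -0.65 (SE 0.21, adjusted p = 0.151). PCNA was at 62.0, 39.6 and 47.1 against 38.8, 44.6 and 44.4. The make-up of the class moved with these values. An endothelial sub-cluster led by ACE held 8, 13 and 6 control cells and 100, 115 and 91 asthma cells, another led by SEMA3G held 4, 0 and 3 against 74, 68 and 135, and a fibroblast sub-cluster led by RBP4 held 29, 45 and 132 against 19, 18 and 2. Its part in the STMN1 and RRM1 differences was not tested. Many genes of other kinds differed there, with 1.62% of all genes called and 9.10% lower at an unadjusted p under 0.05, and 0 of the 7 members tested were called by edgeR or DESeq2.

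The other classes held small parts of the member UMIs. In granulocyte-like cells, with 718 member UMIs, the sum was 495.1 ± 154.7 CPM in controls and 393.2 ± 77.1 in asthma animals (n = 3 each). In epithelial-like cells STMN1 was at 47.7, 22.3 and 96.6 CPM in controls and 70.4, 23.6 and 50.3 in asthma animals. RRM1 was at 37.3, 26.0 and 47.6 against 40.5, 33.9 and 44.1, and PCNA, with the smallest p of 0.127 ahead of MCM6 at 0.174, at 44.2, 26.0 and 55.7 against 28.6, 37.9 and 30.5. All overlapped. In monocyte-like cells PCNA was at 100.1, 57.2 and 88.7 against 61.5, 77.0 and 72.6. STMN1 there was at 32.7, 25.6 and 38.5 against 35.3, 37.3 and 55.8 (smallest p 0.0718, before PCNA at 0.360), and RRM1 at 28.4, 25.2 and 20.2 against 23.8, 32.5 and 27.8. In MC-like cells, marked by UPK3B and MSLN, RRM1 was at 56.2, 61.7 and 41.7 against 44.7, 43.8 and 28.4. PCNA was at 26.8, 30.8 and 26.3 against 28.0, 41.9 and 28.4, and MCM7 at 10.7, 11.2 and 24.1 against 16.7, 18.8 and 9.47. RRM1 and PCNA gave the smaller p there (0.249 and 0.397), as did CENPE and PCNA in granulocyte-like cells (0.523 and 0.779). No groups were apart in the genes given per library here, nor in CENPE and PCNA of granulocyte-like cells. Among untested members of granulocyte-like cells with few UMIs, STMN1 and KIF23 were apart with asthma lower, and CDC20 and NDC80 with asthma higher. The share of all genes whose groups were apart in that class is not given here, and nothing is concluded from these genes. edgeR called 0 of the 6, 7, 2 and 2 members tested in epithelial-like, monocyte-like, MC-like and granulocyte-like cells, with 0 at an unadjusted p under 0.05 and 0 by DESeq2, beside 0%, 0%, 0.0371% and 0% of all genes called by edgeR.

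Named subtypes of T and NK-like cells held a minority of the cells with at least 5 members. There were 67, 43 and 10 in the NK sub-clusters, 40 in the CD4 T sub-cluster and 5 in regulatory T cells. In NK cells 12 members passed the filter, all with log2 fold changes below 0, beside 50.5% of all genes. By edgeR, STMN1 (-0.84, SE 0.19, unadjusted p 0.00111) and CENPF (-0.84, SE 0.22, unadjusted p 0.00267) came first, with 0 called, beside 0% of all genes, and 4 at an unadjusted p under 0.05, all lower, beside 2.73% of genes lower. With no filter on low counts edgeR called 5 members in NK cells, STMN1, TYMS, MKI67, CENPF and PCNA, with log2 fold changes from -0.73 for PCNA to -2.75 for TYMS, beside 0.519% of genes called lower. The NK cells lay in different sub-clusters, with 271 of the 356 of asthma replicate 11 in 1 led by ITGAD, and 694, 168 and 334 of the 940, 298 and 582 control NK cells in another led by FCER1G. The leading genes of the ITGAD sub-cluster included DCN and SFTPC, markers of stromal and epithelial cells, and no listed NK marker, so that its name is less certain. Without asthma replicate 11, 13 of 14 members were below 0, beside 51.2% of all genes, with MCM5 above 0, and 5 were lower at an unadjusted p under 0.05, beside 3.09% of genes. In CD4 T cells STMN1 and PCNA stood at -0.66 (SE 0.22) and -0.67 (SE 0.22), 7 of 9 members were below 0, beside 49.7% of all genes, 2 had an unadjusted p under 0.05, beside 3.45% of genes lower, and 0 were called, as were 0% of all genes. In regulatory T cells only STMN1 passed, at -1.16 (SE 0.57), in 3 control and 2 asthma libraries, since asthma replicate 8 had 9 such cells, under the minimum of 10.

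Interstitial and alveolar macrophage-like cells gave both signs. Alveolar cells were compared over 2 libraries per group, since control replicate 3 had 6 and asthma replicate 10 had 3. They also lay in different sub-clusters, with 319 of the 320 cells of asthma replicate 8 in 1 led by FAM9C and FABP4 and all 99 of control replicate 1 in another led by CHIT1 and RBP4. Interstitial cells lay in different sub-clusters too. In 1 led by CCL17 and CLEC10A were 210, 33 and 65 control cells and 25, 43 and 88 asthma cells. Another led by PLA2G2D held 32, 30 and 45 against 41, 294 and 21. The leading genes of the CCL17 sub-cluster included F13A1, a listed marker of interstitial macrophages, and FLT3, a marker of dendritic cells. No listed marker of the macrophage class was among them, so that its name is less certain. Of 10 and 12 members tested, 5 and 6 were below 0, beside 50.7% and 49.1% of all genes. By edgeR, MCM6 had the smallest unadjusted p in interstitial cells (0.0424, log2 fold change 0.72, SE 0.31), before PCNA (-0.31, SE 0.16), and MCM7 and CENPF came first in alveolar cells (-1.62, SE 0.68, and 0.66, SE 0.37). With the filter none was called by edgeR, and DESeq2 called none, beside 0.0129% and 0% of all genes by edgeR, and 1 and 0 had an unadjusted p under 0.05, higher in asthma, beside 2.54% of genes in interstitial cells. With no filter edgeR called MCM7 in alveolar cells (-1.62, adjusted p = 0.00162), beside 0.385% of genes called lower, with levels of 83.5 and 65.5 CPM in control animals 1 and 2 against 10.2 and 48.2 CPM in asthma animals 8 and 11.

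Whole libraries rest on no class name. Over all kept cells the members summed to 510.1, 718.7 and 1272.4 CPM in controls and 488.1, 427.7 and 340.5 in asthma animals, without overlap, and control replicate 1 came close to asthma replicate 8. Over all deposited barcodes, those that missed the quality thresholds included, the sums were 563.9, 927.1 and 1468.1 CPM in controls and 680.7, 523.4 and 370.3 in asthma animals, and the groups overlapped. Over the kept cells the mean was 833.7 ± 394.0 in controls and 418.8 ± 74.2 in asthma animals (n = 3 each), and without control replicate 3 the control mean was 614.4 ± 147.5 (n = 2). All 47 members had a log2 fold change below 0, as had 52.2% of 14306 genes, with a median of -1.34. Groups did not overlap for 24 of them, beside 9.13% of all genes, and 34 had an unadjusted p under 0.05, beside 5.03% of genes lower. AURKA (-0.91, SE 0.16, adjusted p = 0.141) and TYMS (-1.54, SE 0.34, adjusted p = 0.182) came first in edgeR's test. edgeR called 0 members, beside 0.0839% of all genes, and DESeq2 called 10, beside 1.10% of genes called lower. Without control replicate 3, 46 of 47 were below 0, beside 51% of all genes, and 12 had an unadjusted p under 0.05, beside 4.65% of all genes lower. T and NK-like cells made up 5247 of 11441 control cells and 4949 of 12794 asthma cells, so that their share also enters these sums.

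Other genes of the cycle, listed apart from the members, were followed in T and NK-like cells, where 49.4% of all genes tested were below 0 and, at an unadjusted p under 0.05, 4.08% were lower and 2.94% higher. Of the 10 transcription factors tested all were below 0 and 5 had an unadjusted p under 0.05. E2F1, which opens the S phase program, was at 11.7, 12.2 and 17 CPM in controls and 5.20, 5.66 and 4.13 in asthma animals, a log2 fold change of -1.43 (SE 0.24, adjusted p = 0.25 by edgeR). FOXM1, which drives mitotic genes, was at 7.54, 5.75 and 18.6 against 2.27, 1.99 and 0.775, a log2 fold change of -2.58 that was -1.90 without control replicate 3. MYBL2, of the complex that acts before FOXM1, was at 7.08, 11.8 and 22.7 against 4.26, 2.29 and 1.81. None of these 3 overlapped, as for 6.53% of all genes with asthma lower. Of 35 further S phase genes tested, 34 were below 0 with a median of -0.68, and all 61 further G2 and M phase genes were, with a median of -0.92.

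The lists of genes that act outside division itself had medians closer to 0. The 6 G1 cyclins and kinases had a median log2 fold change of -0.10, with 4 below 0 and 1 at an unadjusted p under 0.05, and the 13 brakes on the cycle had -0.09, with 9 below 0 and 2 at that level. CCND3, the D cyclin of lymphocytes, was at 150.9, 179.0 and 175.8 CPM in controls and 176.5, 190.1 and 176.4 in asthma animals. CDKN1A and CDKN1B, which hold the cyclin-dependent kinases back, were at 77.9, 40.6 and 51.2 against 30.4, 49.6 and 40.8, and at 104.2, 94.2 and 85.9 against 84.6, 68.8 and 101.5. CDKN2C, an inhibitor of CDK4 and CDK6, was at 57.6, 33.4 and 68.6 against 31.9, 37.3 and 34.9. All 4 overlapped between the groups. The 3 genes at an unadjusted p under 0.05 in edgeR, of which CCNE1 and CDKN2B were named after their values were seen, were all lower in asthma. CCNE1, a cyclin of entry into S phase, was at 10.8, 7.99 and 8.74 CPM in controls and 6.80, 3.36 and 5.68 in asthma animals without overlap, a log2 fold change of -0.79 (SE 0.30). CDKN2B, another inhibitor of CDK4 and CDK6, was at -0.64 (SE 0.22) and CDKN2C at -0.62 (SE 0.24), both with overlap. CCND2 had no row of that symbol. None of these lists had a called gene, and whether they differed from the members was not tested.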

How the data were processed

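Each of the 6 lung libraries (10x Chromium 3' chemistry, 1 animal each) was deposited by the authors as a matrix of raw UMI counts from Cell Ranger, aligned to the macFas6 genome, and its lowest barcode held 500 UMIs. The version of Cell Ranger differs between the sources and is not given here. Barcodes were kept between 500 and 5000 genes, from 500 UMIs upward and up to a mitochondrial share of 25%, and doublets were kept, since Scrublet called 0.0413% of cells by itself (793 were marked by rank for an alternative). Cells were clustered with leidenalg 0.10.2 at resolution 0.8, without the listed cell cycle genes, and scanpy 1.11.5 gave the Scrublet scores. Classes need at least 3 detected markers, and the rule for mixed sub-clusters (1440 cells) and for leading genes was set after seeing the clusters. Counts were summed per library and class (at least 10 cells), filtered with filterByExpr, scaled with TMM and tested with edgeR 4.0.16 (quasi-likelihood test, Benjamini-Hochberg over all genes, called at adjusted p under 0.05 and log2 change over 0.25). The SE given with edgeR's log2 fold changes is the size of the change over the square root of the test's F statistic. It is unstable where the change is small. DESeq2 1.42.0, no filter, other cell thresholds and clusterings and leaving out each library were alternatives. The fit was run on simulated counts with the same spread for every gene and no library set apart. That check does not cover a case such as control replicate 3. Cells were thinned to 1000 UMIs with a fixed seed. Reads at 3' ends do not depend on gene length. Tests compare each gene between groups, and levels of different genes are set side by side only as description.

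The members and lists were chosen with earlier results of these data known. Named are the 12 members with the most UMIs in T and NK-like cells and 8 fixed ones, 16 in all, the 3 with the most UMIs in other classes of at least 1000 member UMIs, and in each tested class the 2 with the smallest p. P-values measure the spread between 3 animals per group, except in alveolar macrophage-like cells (2 libraries per group) and regulatory T cells (3 control and 2 asthma), where libraries under 10 cells dropped out. Sums over all deposited barcodes, sums, roles and single genes without 1 library and values without cells of over 1% UMIs from another class's markers were added after seeing the data.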

Additional observations from a re-analysis of the deposited data

How the results depend on the processing

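In T and NK-like cells edgeR called 0 members when the mitochondrial limit was 10%, when the gene limits were 200 and none, without marked doublets, at Leiden resolution 1.6, with cell cycle genes kept in clustering and without each library in turn, and every tested member stayed below 0 under each of these. DESeq2 called 16 and edgeR with no filter on low counts called 16, and the cause was not tested. Leaving out 1 library moved the median log2 fold change of the members between -0.84 (without control replicate 3) and -1.65. In the other classes together, no filter gave 2 calls, and leaving out 1 library gave 0 to 1. In subtypes no filter gave 6 calls, and leaving genes that follow the members out of clustering as well, chosen after seeing the data, gave 0. In whole libraries DESeq2 gave 10. For the difference between T and NK-like and macrophage-like cells DESeq2 gave 1 call and no filter 2. The share of cells with an MKI67 UMI and the share with at least 5 members stayed lower in asthma under all alternatives run, with differences of -3.59 to -10.9 percentage points for MKI67 and -5.33 to -11.8 for at least 5 members. Other limits gave -14.9 for at least 3 members, -6.33 for at least 10 and -6.02 for mitotic members alone. Control replicate 3 weighed most in the values for at least 10 and for mitotic members, with shares of 14.1% and 14.6%. Control replicates 1 and 2 had 3.19% and 5.84% for at least 10, and 3.46% and 4.91% for mitotic members. Of the sums computed after seeing the data, those of T and NK-like cells did not overlap without any 1 library, those of whole libraries overlapped over all deposited barcodes, and the difference of -724.7 CPM in plasma-like cells became 793.6 without control replicate 3. No paired analysis was possible because the groups share no replicate numbers. With 3 animals per group and 1 control far above the others, the size of the difference is loosely set.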
